A study of Mus musculus with 9 samples.

Results

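Livers that had undergone ischaemic postconditioning (IPO) were compared with livers after sham surgery, to describe which transcripts still differed from sham by gene, family and pathway. The comparison held 6 of the 9 RNA-seq libraries of the study, 3 from IPO and 3 from sham, and every gene whose average over all 9 libraries reached 1 FPKM, namely 9649 of the 11229 genes in the table. FPKM count sequenced fragments relative to the length of the transcript and to the size of the library. The groups were taken from the labels. All 9 livers came from C57BL/6 mice of 8 weeks, and no genotype or transgene is named. The sham group had surgery without interruption of blood flow, and the IPO group had ischaemia-reperfusion with postconditioning. The other 3 libraries, from mice with ischaemia-reperfusion (IR) and no postconditioning, entered the fit to estimate the spread and are given beside single genes. The labels state neither the length of ischaemia, the pattern of postconditioning nor the time of sampling. They do not say that replicates are separate animals either, so p-values measure only library-to-library spread, part or all of which may be technical. The sample descriptions carry one number in every IPO library and other numbers in the sham libraries. The meaning of these numbers is not stated. Any effect they mark cannot be told apart from the treatment, in IPO against sham or in IPO against IR.

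Ischaemia deprives hepatocytes of oxygen, and the return of flow brings a burst of oxidants, calcium overload and an inflammatory response. In postconditioning the returning flow is briefly interrupted, a manoeuvre studied because it can limit reperfusion injury in several organs. Hepatocytes oxidise fatty acids under the nuclear receptor PPARA, degrade tryptophan through the kynurenine pathway, and answer stress through heat shock factor, NRF2 and interferon-driven transcription, so these programmes were among the 66 gene lists described below.

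Summed FPKM ran from 369625 to 385855 in the sham libraries and from 375460 to 387000 in the IPO libraries (two-sided exact permutation p = 0.9). The 10 most abundant genes held 13.96% to 15.02% of that sum in sham and 15.05% to 16.30% in IPO, and 11196 to 11206 genes were above 0 in sham against 11193 to 11194 in IPO. Neither of these measures overlapped between the groups, and each had an exact permutation p of 0.1, the smallest that 3 against 3 libraries can give. Their part in the differences below was not tested. How many reads stand behind a value is unknown. Pearson correlations across genes, which are not independent replicates, ran from 0.964 to 0.976 between sham and IPO libraries, from 0.969 to 0.984 within sham and from 0.979 to 0.987 within IPO. The first principal component, with 46.8% of the variance, placed 2 sham libraries at -21.2 and -18.2 beside the IPO libraries at -25.6 to -19.5, while sham replicate 3 lay at -2.20, towards IR. The third component, with 12.3%, held the sham libraries at -20.3 to -7.55 and the IPO libraries at 6.75 to 16.3. All 6 hepatocyte markers (Alb, Ttr, Apoa1, Apob, Serpina1a and Ahsg) were present, with a summed level of 17271 to 24117 FPKM in sham and 22877 to 24965 FPKM in IPO.

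Between IPO and sham, 22 of 9649 genes (0.228%) passed a limma adjusted p under 0.05, 12 higher (0.124%) and 10 lower (0.104%) in IPO. Of these, 18 (0.187%) differed at least 2-fold. The genes that rose encode a tubulin, the TWEAK receptor, a water channel and enzymes of bile acid and coenzyme Q metabolism, among others. Those that fell encode an assembly factor of ATP synthase, enzymes of amino acid breakdown and several regulators of signalling and transcription. At an unadjusted p under 0.05, 1186 genes (12.3%) stood out, 497 higher (5.15%) and 689 lower (7.14%). The 3 libraries of each group did not overlap in 2195 genes (22.7%), and the 22 called genes were among them. The authors' deposited table for IPO against sham lists 275 genes and holds all 22 called genes, which are 100% of the calls and 8% of its list. It holds 268 of the 9649 genes tested here, and 1 of its genes has a q-value under 0.05. That table rests on the same libraries, so the overlap is no independent check of the calls.

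The number of calls changed when single libraries were left out. Such a fit also has fewer libraries, and the part of this in the lost calls was not tested. Without sham replicate 2, or without IPO replicate 3, 1 gene was called, Gm20708. Without sham replicate 1 there were 6 calls, and Adck4, Afmid, Gm20708, Rtn4rl1 and Tmem70 kept theirs. Without sham replicate 3 there were 11, of which Afmid, Akr1b7, Gm20708, Rtn4rl1 and Tmem70 were shared with the 22. Leaving out IPO replicate 1 gave 8 calls, with Afmid, Efhd2, Fndc4, Gm20708, Rtn4rl1, Tmem70 and Tnfrsf12a retained. Leaving out IPO replicate 2 gave 6, with Afmid, Aqp8, Gm20708, Rtn4rl1 and Tmem70 retained. Without IR replicate 2, which enters only the estimate of the spread, 11 genes were called. In none of these fits did any of the 22 genes turn its direction, but this was fixed beforehand. Their sham and IPO libraries do not overlap, so leaving one out cannot change the sign, and IR libraries do not enter the difference.

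**Figure D1:**
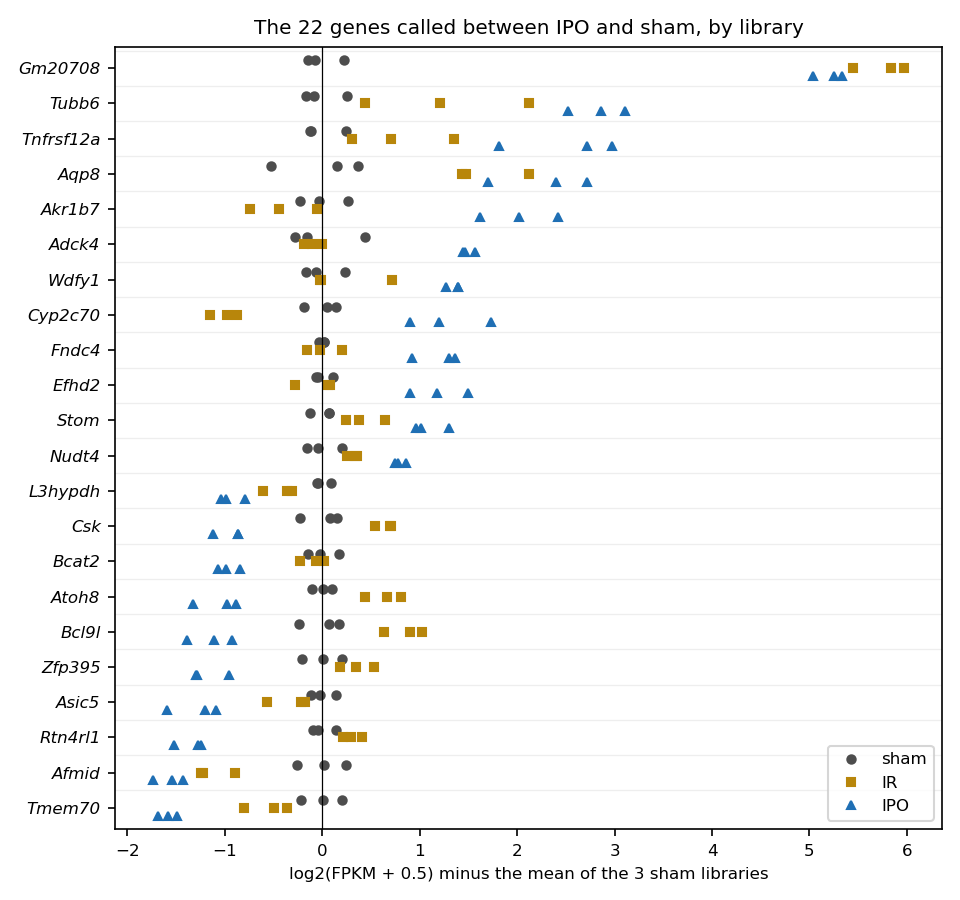
Level of the 22 called genes in each library, as log2(FPKM + 0.5) minus the mean of the 3 sham libraries, with 1 symbol per library (circles sham, squares IR, triangles IPO). The sham and IPO symbols do not overlap in any of the 22 genes, and Gm20708 stands apart with a difference of 5.21 on the log2 scale, against 2.83 for the next gene, Tubb6.

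The clearest difference lay at 1 locus on chromosome 11, where 3 gene models of the same strand share exons. Afmid (ENSMUSG00000017718.15, chr11:117825924-117839908 on mm10, plus strand) encodes arylformamidase, the second enzyme of tryptophan breakdown in the kynurenine pathway. Gm20708 (ENSMUSG00000093485.1, chr11:117809668-117839904, plus strand) is a predicted protein-coding gene whose single GENCODE M21 transcript has 3 exons. Its first exon of 136 bases is also the start of Syngr2, the gene of a vesicle membrane protein, and its other exons overlap exons of Afmid. Of its 1780 exonic bases, 1566 (88.0%) are thus exonic in Afmid as well, 136 in Syngr2 and 78 in neither. Gm20708 shares its annotated start with Syngr2, so the 2 starts in question are shown by the last 100 bases before the RefSeq (GRCm38.p6) start of each gene, both on the plus strand, Syngr2 at chr11:117809567-117809666 and Afmid at chr11:117825819-117825918.
Syngr2: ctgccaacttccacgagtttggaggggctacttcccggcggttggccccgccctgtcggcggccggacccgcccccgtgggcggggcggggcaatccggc
Afmid: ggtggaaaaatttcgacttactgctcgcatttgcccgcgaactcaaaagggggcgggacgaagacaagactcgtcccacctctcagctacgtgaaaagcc

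Gm20708 measured 0.399, 0.660 and 0.444 FPKM in the sham libraries and 37.3, 39.7 and 32.1 FPKM in the IPO libraries. Afmid measured 29.1, 35.4 and 41.5 FPKM in sham and 12.7, 11.7 and 10.1 FPKM in IPO. Thus nearly all signal sat on Afmid in every sham library, and most of it on Gm20708 in every IPO library. Gm20708 rose by 5.21 on the log2 scale (SE 0.17, limma adjusted p = 7.08e-07) and Afmid fell by 1.57 (SE 0.16, limma adjusted p = 0.00931). The IR libraries showed the same split, with 53.7 ± 9.90 FPKM (SD, n = 3) for Gm20708 and 15.9 ± 2.29 FPKM for Afmid. The summed FPKM of both models was 35.8 ± 6.20 in sham, 69.7 ± 11.7 in IR and 47.9 ± 4.92 in IPO (SD, n = 3), with the highest sham library at 41.9 and the lowest IPO library at 42.2. Syngr2 measured 5.92, 8.10 and 19.3 FPKM in sham and 7.06, 10.6 and 7.40 FPKM in IPO, which overlap. Because Gm20708 shares most of its exonic bases with Afmid, and Afmid 1566 of its 3539 with Gm20708, how fragments were divided between them by the authors' quantification cannot be read from the values, and both levels are uncertain. Gm20708 lies outside the rule for named genes and was chosen after its values were seen.

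**Figure D2:**
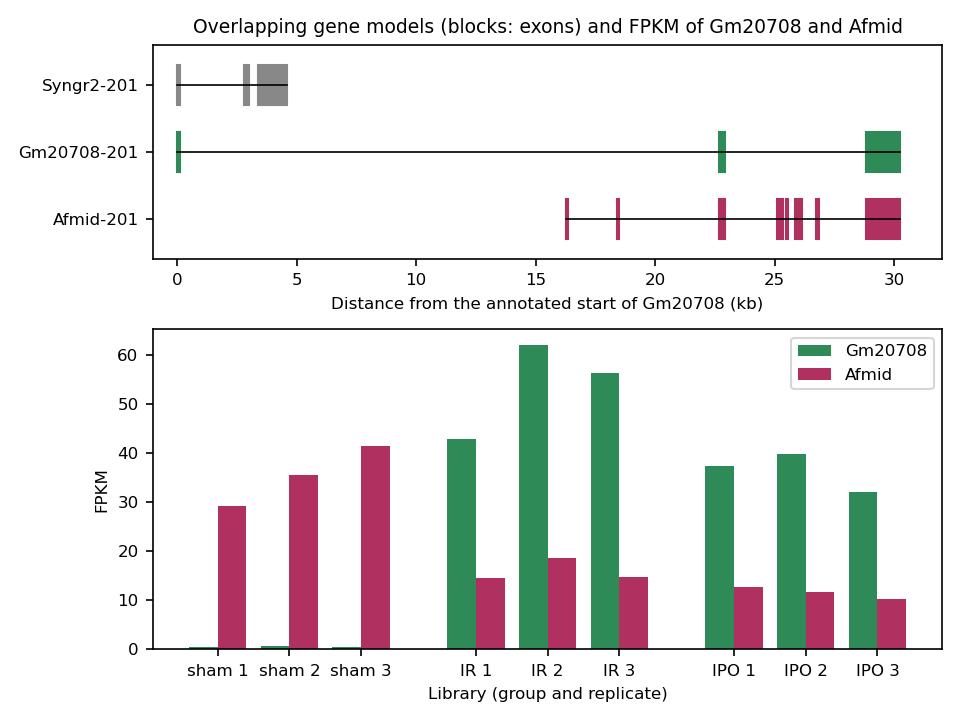
Top, exons (blocks) of 1 transcript each of Syngr2, Gm20708 and Afmid by distance from the annotated start of Gm20708 in kb; bottom, FPKM of Gm20708 and Afmid in each library. The sham libraries have at most 0.660 FPKM for Gm20708 and at least 29.1 FPKM for Afmid, and the IR and IPO libraries have more Gm20708 than Afmid.

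Mitochondrial and catabolic enzymes made up a further group. Tmem70 (ENSMUSG00000025940.6, chr1:16665207-16678275), which is needed to assemble the mitochondrial ATP synthase, measured 26.3, 30.2 and 22.5 FPKM in sham and 8.40, 7.79 and 9.02 FPKM in IPO. Every IPO library thus held less than the lowest sham library by a wide margin, and the IR libraries, at 17.8 ± 2.80 FPKM (SD, n = 3), lay between. The log2 fold change was -1.58 (SE 0.16, limma adjusted p = 0.00931). Bcat2, the mitochondrial aminotransferase that starts the breakdown of branched-chain amino acids, fell from 2.92, 3.42 and 2.66 FPKM in sham to 1.25, 1.45 and 1.16 FPKM in IPO (log2 fold change -0.97, SE 0.14, limma adjusted p = 0.0350). Its levels are low and it was named after its values were seen. L3hypdh, a dehydratase of 3-hydroxyproline, fell from 6.73, 7.46 and 6.71 FPKM to 3.12, 3.26 and 3.81 FPKM (log2 fold change -0.94, SE 0.13, limma adjusted p = 0.0280). In the opposite direction, Adck4, listed as Coq8b in GENCODE and needed for coenzyme Q synthesis, rose from 4.46, 2.52 and 2.77 FPKM to 9.48, 10.3 and 9.57 FPKM (log2 fold change 1.49, SE 0.18, limma adjusted p = 0.0209). The Adck4 level in IR, 2.92 ± 0.221 FPKM (SD, n = 3), lay within the range of sham. Among 85 tested nuclear genes of oxidative phosphorylation, 0 were called, against 0.228% of all tested genes. At an unadjusted p under 0.05, 3 (3.53%) were lower, below the 7.14% of all tested genes. Of these 85 genes, 74 had a negative log2 fold change, while 4356 of all 9649 tested genes had a positive one. The median was -0.09, against -0.03 over all tested genes. The mitochondrially encoded transcripts went the other way, with a positive log2 fold change in 12 of 13, a median of 0.14 and 0 called.

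Among the genes that rose were a tubulin, a cytokine receptor, an actin-associated protein and a membrane scaffold. Tubb6 (ENSMUSG00000001473.6, chr18:67390717-67402748), a beta-tubulin isotype of low abundance in most tissues, measured 3.92, 3.69 and 5.10 FPKM in sham and 26.4, 40.1 and 33.6 FPKM in IPO. Tnfrsf12a (ENSMUSG00000023905.14, chr17:23675447-23677449), the Fn14 receptor for the cytokine TWEAK, measured 15.4, 11.9 and 11.8 FPKM in sham and 46.7, 105 and 88.2 FPKM in IPO. In both genes all IPO libraries exceeded all sham libraries, and IPO replicate 1 was the lowest of the 3. On the log2 scale Tubb6 rose by 2.83 (SE 0.36, limma adjusted p = 0.0209) and Tnfrsf12a by 2.50 (SE 0.33, limma adjusted p = 0.0233). The IR libraries measured 12.1 ± 7.21 FPKM for Tubb6 and 23.8 ± 9.12 FPKM for Tnfrsf12a (SD, n = 3), below IPO in each case (limma adjusted p = 0.0148 and 0.00729 for IPO against IR). Efhd2, a calcium-binding protein that associates with actin, rose from 29.3, 26.0 and 26.5 FPKM in sham to 51.1, 77.5 and 62.3 FPKM in IPO (log2 fold change 1.19, SE 0.17, limma adjusted p = 0.0280). Stom, the membrane scaffold protein stomatin, rose from 11.7, 10.1 and 11.7 FPKM to 22.1, 28.1 and 22.97 FPKM (log2 fold change 1.09, SE 0.15, limma adjusted p = 0.0263).

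Of 31 tested actin, tubulin, keratin and related genes, 1 was called, Tubb6, and 10 (32.3%) were higher and 2 (6.45%) lower at an unadjusted p under 0.05, against 5.15% and 7.14% of all tested genes. The list median was 0.39, against -0.03 over all tested genes. Krt8 and Krt18 encode the paired keratins of hepatocyte intermediate filaments. Krt8 measured 72.2, 66.9 and 150 FPKM in sham and 285, 561 and 550 FPKM in IPO, and Krt18 measured 112, 125 and 143 FPKM against 286, 503 and 538 FPKM. Neither overlapped between the groups, yet neither passed the test: the log2 fold changes were 2.30 (SE 0.40) and 1.75 (SE 0.34), with limma adjusted p of 0.0751 and 0.0800. In IR, Krt8 measured 391 ± 184 FPKM and Krt18 330 ± 170 FPKM (SD, n = 3), and neither passed the test of IPO against IR (limma adjusted p = 0.650 and 0.332). Tuba8, an alpha-tubulin isotype, went the other way, with 3.22, 4.15 and 3.56 FPKM in sham and 0.773, 1.23 and 1.60 FPKM in IPO (limma adjusted p = 0.114). The count of 10 higher members became 6 without sham replicate 1, without IPO replicate 2 or without IPO replicate 3.

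Several called genes act in signalling or transcription and lay below sham in IPO but above it in IR. Csk, the kinase that holds Src family kinases inactive, measured 11.96, 15.7 and 14.9 FPKM in sham, 23.3, 23.4 and 20.8 FPKM in IR and 6.24, 7.54 and 7.55 FPKM in IPO. Bcl9l, a cofactor of beta-catenin in Wnt signalling, measured 5.32, 4.22 and 5.78 FPKM in sham, 9.91, 10.8 and 8.14 FPKM in IR and 2.43, 1.63 and 2.08 FPKM in IPO. Atoh8, a basic helix-loop-helix transcription factor, measured 8.31, 8.86 and 7.61 FPKM in sham, 13.4, 14.8 and 11.4 FPKM in IR and 4.23, 3.94 and 2.98 FPKM in IPO. In these 3 genes no library of one group overlapped another group. Against sham, IPO fell by 0.95 for Csk (SE 0.14, limma adjusted p = 0.0350), by 1.14 for Bcl9l (SE 0.17, limma adjusted p = 0.0386) and by 1.06 for Atoh8 (SE 0.16, limma adjusted p = 0.0335), all on the log2 scale. The same fit gave IR against sham at 0.65 for Csk, 0.85 for Bcl9l and 0.64 for Atoh8 (limma adjusted p = 0.0209, 0.0171 and 0.0320), a comparison in which 3.86% of all tested genes were called higher and 7.64% lower. Both comparisons share the sham libraries. Bcl9l lost its call against sham under median-of-ratios and quantile scaling. Csk, Bcl9l, Atoh8 and also Zfp395 were not called when the fit held the sham and IPO libraries only. Each of them also lost its call when any single sham or IPO library was left out. Zfp395, a zinc finger gene, fell from 5.26, 3.83 and 4.52 FPKM in sham to 1.55, 2.07 and 1.53 FPKM in IPO (log2 fold change -1.18, SE 0.16, limma adjusted p = 0.0270), with 5.93 ± 0.772 FPKM (SD, n = 3) in IR. It was the called member among 205 tested zinc finger genes, of which 6 (2.93%) were higher and 10 (4.88%) lower at an unadjusted p under 0.05, below the shares of all tested genes. Rtn4rl1, a receptor related to the Nogo receptor, was low in all groups, at 2.43, 2.31 and 2.82 FPKM in sham and 0.550, 0.741 and 0.768 FPKM in IPO (log2 fold change -1.35, SE 0.14, limma adjusted p = 0.00931), and was named after its values were seen.

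Transport and metabolic genes completed the calls. Aqp8 (ENSMUSG00000030762.11, chr7:123462291-123468004), a water channel of hepatocytes that also passes ammonia and hydrogen peroxide, measured 5.62, 3.32 and 6.57 FPKM in sham and 28.4, 17.3 and 35.6 FPKM in IPO (log2 fold change 2.27, SE 0.31, limma adjusted p = 0.0270). All IPO libraries were above all sham libraries, and the IR libraries were too, at 17.5 ± 5.09 FPKM (SD, n = 3). Asic5, an ion channel of the acid-sensing family that responds to bile acids, fell from 5.11, 5.80 and 4.78 FPKM to 1.40, 1.98 and 2.19 FPKM (log2 fold change -1.29, SE 0.17, limma adjusted p = 0.0262). Cyp2c70, the mouse enzyme that makes muricholic bile acids, measured 108, 115 and 91.1 FPKM in sham and 347, 239 and 195 FPKM in IPO (log2 fold change 1.28, SE 0.20, limma adjusted p = 0.0441). In IR it measured 52.0 ± 4.98 FPKM (SD, n = 3), below both other groups. Cyp2c70 held its call in 6 of the 19 alternative analyses, the fewest of the 22 genes.

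Akr1b7, an aldo-keto reductase, lay below the filter of 1 FPKM in sham, at 0.373, 0.498 and 0.733 FPKM, and in IR, at 0.285 ± 0.190 FPKM (SD, n = 3), and reached 4.97, 3.67 and 2.64 FPKM in IPO (log2 fold change 2.02, SE 0.26, limma adjusted p = 0.0209). It passed the filter only through the IPO libraries, where it was high, and was also called with no filter on low values. Its fold change is understated on this scale because the sham values are close to the added 0.5, and it was named after its values were seen. Fndc4, a secreted factor with a fibronectin type III domain, rose from 7.32, 7.33 and 7.03 FPKM to 14.1, 18.6 and 19.4 FPKM (log2 fold change 1.20, SE 0.15, limma adjusted p = 0.0209). Wdfy1, an endosomal adaptor protein, rose from 1.71, 1.87 and 2.41 FPKM to 6.02, 6.02 and 5.48 FPKM (log2 fold change 1.35, SE 0.21, limma adjusted p = 0.0392), and lost its call under median-of-ratios and quantile scaling. Nudt4, a hydrolase of diphosphoinositol phosphates, rose from 105, 82.1 and 88.3 FPKM to 157, 166 and 153 FPKM (log2 fold change 0.79, SE 0.12, limma adjusted p = 0.0350). For Fndc4 the IR libraries, at 7.30 ± 1.01 FPKM, resembled sham, and for Wdfy1 and Nudt4 they measured 2.49 ± 0.931 and 114 ± 4.35 FPKM (SD, n = 3). Of the 22 called genes, 3 share exonic bases with another gene of the same strand in GENCODE M21, namely Gm20708, Afmid and Adck4, and 6 share some with a gene of the other strand, among them Akr1b7, Bcat2, Bcl9l and Wdfy1. The sources used here do not say whether strand was used in the quantification.

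Of the 66 gene lists, 65 had a tested member and 4 held a called gene. The lists were therefore also described by members at an unadjusted p under 0.05, set beside the 5.15% of all tested genes that were higher and the 7.14% that were lower. Counts of signs stand beside 4356 of all 9649 tested genes with a positive log2 fold change. Members of a list are not independent of each other, some genes stand in more than 1 list, and a share above these values is a description of these libraries. Small counts moved by over 1.5 times in some fits that left out a library.

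**Figure D3:**
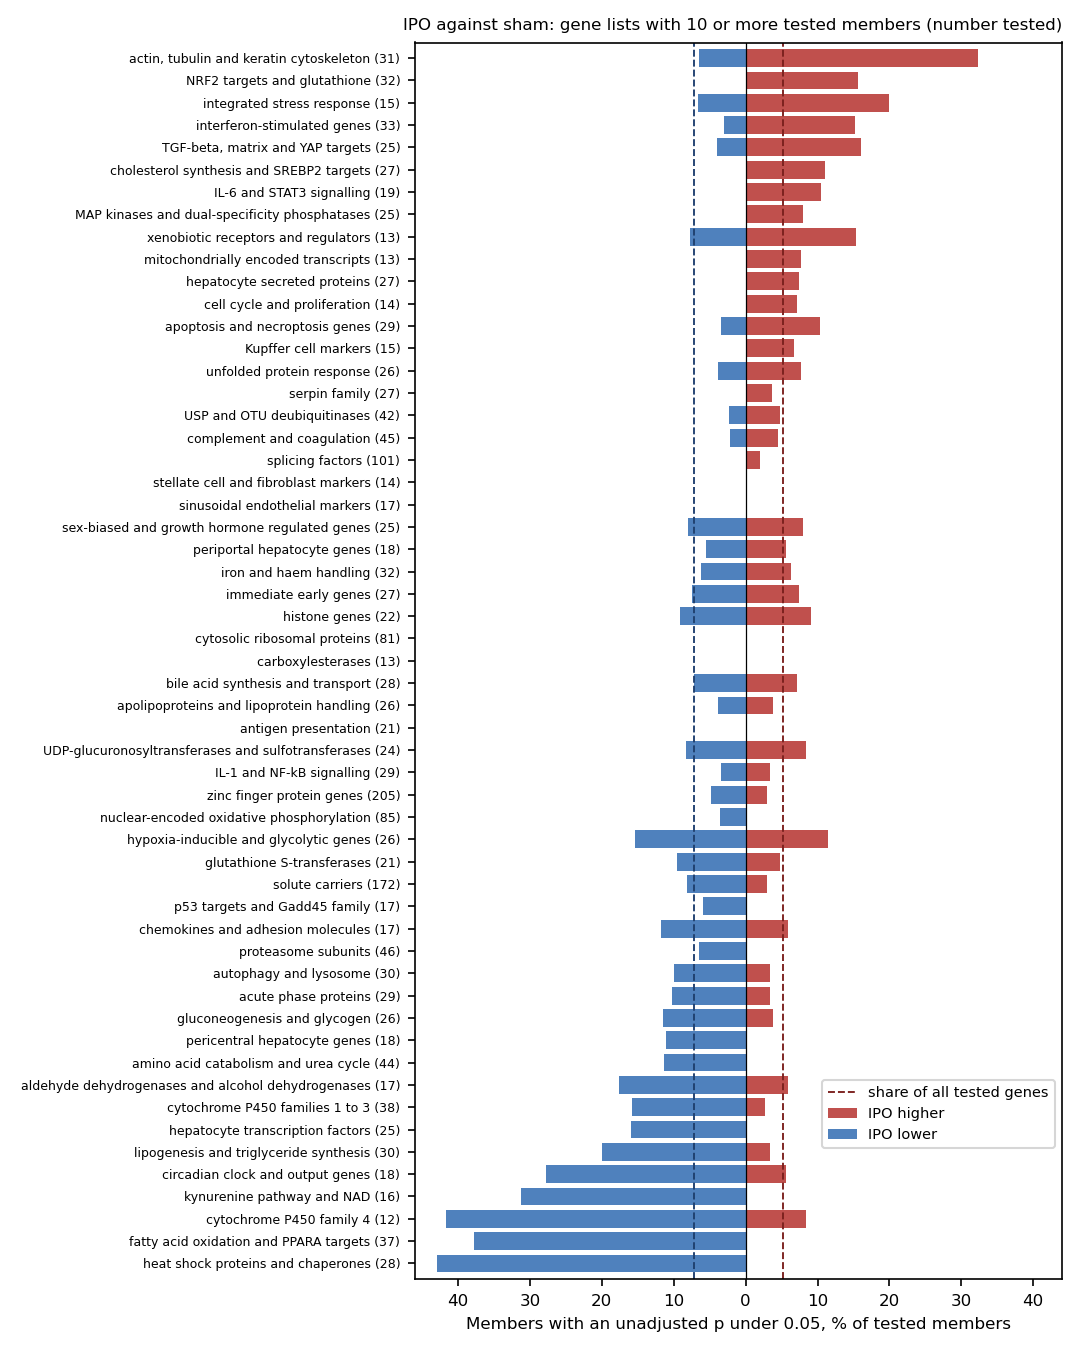
Share of the tested members of each gene list that had an unadjusted p under 0.05 in IPO against sham, to the right where IPO was higher and to the left where it was lower, for the 55 lists with 10 or more tested members. Dashed lines mark the share of all tested genes, 5.15% higher and 7.14% lower, and the heat shock, cytochrome P450 family 4 and fatty acid oxidation lists reach 42.9%, 41.7% and 37.8% on the lower side.

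Genes of fatty acid oxidation and other PPARA targets were mostly lower in IPO. None of 37 tested members was called; 14 (37.8%) were lower and 0 higher at an unadjusted p under 0.05, 34 had a negative log2 fold change, and the median was -0.35. In 19 of the 37 (51.4%) all IPO libraries lay below all sham libraries, against 13.2% of all tested genes. The mean over members, on the log2 scale, was 6.17 to 6.54 in sham and 5.54 to 6.20 in IPO, so the groups overlapped. Cpt2, the inner membrane carnitine palmitoyltransferase, measured 73.9, 90.4 and 71.1 FPKM in sham and 47.0, 54.6 and 57.4 FPKM in IPO. Slc25a20, the carnitine-acylcarnitine carrier, measured 40.2, 40.9 and 36.8 FPKM in sham and 24.3, 29.8 and 32.03 FPKM in IPO. Both groups of libraries were separate in each gene, with log2 fold changes of -0.56 (SE 0.13) and -0.45 (SE 0.13) and limma adjusted p of 0.133 and 0.215. Vnn1, a pantetheinase that is a strong PPARA target in mouse liver, had 38.1, 55.1 and 32.1 FPKM in sham and 9.27, 18.2 and 28.6 FPKM in IPO (limma adjusted p = 0.197). Cyp4a14, a fatty acid omega-hydroxylase, had 1332, 1747 and 1433 FPKM in sham and 348, 916 and 1017 FPKM in IPO (limma adjusted p = 0.248). IPO replicate 1 was the lowest library in all 4 of these genes. Ppara itself measured 18.1, 16.5 and 22.8 FPKM in sham and 15.6, 15.6 and 14.2 FPKM in IPO (limma adjusted p = 0.531), and was named for its role after its values were seen.

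In IR, Cyp4a14 measured 1776 ± 355 FPKM and overlapped sham, and Ppara measured 34.5 ± 8.25 FPKM (SD, n = 3), above every sham library. Against IR, 29 of the 37 members were called lower in IPO, where 10.1% of all tested genes were called lower. Without sham replicate 2 the members lower than sham at an unadjusted p under 0.05 numbered 4, and without IPO replicate 1 they numbered 6. The median ran from -0.41 to -0.25 over all alternative analyses. Of 12 tested genes of cytochrome P450 family 4, several of which are also in that list, 5 (41.7%) were lower and 1 higher at an unadjusted p under 0.05. Cyp4a10, the other main mouse omega-hydroxylase, had 922, 1377 and 1254 FPKM in sham and 329, 742 and 940 FPKM in IPO, which overlap. Cyp4b1 was the higher member, with 4.41, 5.29 and 4.86 FPKM in sham and 6.56, 5.86 and 6.34 FPKM in IPO (limma adjusted p = 0.285). The Cyp4a genes are close copies, so their levels depend on how shared fragments were assigned. The family's count of 5 became 1 without sham replicate 2 or without IPO replicate 1.

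Heat shock proteins and their cochaperones, which fold proteins and are induced by heat shock factor, showed the same direction. None of 28 tested members was called; 12 (42.9%) were lower and 0 higher at an unadjusted p under 0.05, 24 had a negative log2 fold change, and the median was -0.38. Dnajb4, an HSP40 cochaperone, had 3.88, 6.50 and 6.11 FPKM in sham and 2.01, 2.98 and 3.23 FPKM in IPO (limma adjusted p = 0.174). Hsph1, a nucleotide exchange factor for HSP70, had 7.94, 16.1 and 14.3 FPKM in sham and 4.17, 4.94 and 8.01 FPKM in IPO (limma adjusted p = 0.186). Ahsa1, the activator of HSP90, had 72.3, 91.2 and 69.9 FPKM in sham and 50.5, 51.9 and 62.3 FPKM in IPO (limma adjusted p = 0.194). Of these, Hsph1 overlapped between the groups, and sham replicate 1 was its lowest sham library. Hspa1b, an inducible HSP70, spread most within sham, at 5.95, 17.4 and 27.2 FPKM, against 5.44, 5.21 and 2.73 FPKM in IPO (log2 fold change -1.62, SE 0.56, limma adjusted p = 0.286). It was chosen after its values were seen, and fragments shared with its near-identical neighbour Hspa1a could not be told apart. The mean over members, on the log2 scale, was 4.74 to 5.32 in sham and 4.52 to 4.74 in IPO. The count of 12 became 5 without sham replicate 2 or without IPO replicate 1, 7 without sham replicate 3 and 8 without IPO replicate 2.

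The 250 bases upstream of the start (RefSeq, GRCm38.p6) were searched for GAANNTTC, the inverted core of the heat shock element, which reads the same on both strands. It was found in 9 of the 22 members with a promoter entry (40.9%) and in 7.73% of all 27025 genes with an entry. A gene was counted if any of its entries matched. The stretches of 60 bases around it, with the motif in capitals, are shown for 3 members that measured lower in IPO, Hspa1b at chr17:34959309-34959368 (minus strand), Hspb6 at chr7:30553155-30553214 (plus strand) and Fkbp4 at chr6:128438774-128438833 (minus strand).
Hspa1b: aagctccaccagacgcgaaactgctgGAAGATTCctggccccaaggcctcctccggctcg
Hspb6: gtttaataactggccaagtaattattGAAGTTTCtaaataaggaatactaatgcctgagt
Fkbp4: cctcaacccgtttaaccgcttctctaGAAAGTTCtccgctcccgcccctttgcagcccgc
Hspb6, a small heat shock protein, had 5.59, 6.94 and 5.66 FPKM in sham and 2.65, 4.27 and 4.13 FPKM in IPO, without overlap (limma adjusted p = 0.231). Fkbp4, an immunophilin cochaperone of HSP90, had 24.3, 41.9 and 38.9 FPKM in sham and 17.4, 20.8 and 28.8 FPKM in IPO, with overlap (limma adjusted p = 0.311). A match of these letters describes the sequence and not the binding of a factor. The lists were drawn up by known function or regulation, so a share above that of all genes does not bear on IPO against sham. In all, 6 motifs were searched in this way, each in 1 list, and the interferon motif is given below. A direct repeat of AGGTCA with 1 base between, on either strand, was found in 0 of 27 genes of the fatty acid oxidation and PPARA list and in 0.0407% of all genes with an entry. TGACNNNGC was found in 8 of 27 genes of the NRF2 list (29.6%, and 11.5% of all). CACGTG was found in 4 of 15 of the clock list (26.7%, and 6.86% of all) and CCAAT in 17 of 19 of the cholesterol list (89.5%, and 37.5% of all).

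In the kynurenine and NAD list, 1 of 16 tested members was called, Afmid, whose level is uncertain as described above. With Afmid, 5 members (31.2%) were lower and 0 higher at an unadjusted p under 0.05, and the median was -0.45. Tdo2, the dioxygenase that starts tryptophan breakdown in liver, had 642, 666 and 814 FPKM in sham and 437, 449 and 400 FPKM in IPO (log2 fold change -0.72, SE 0.16, limma adjusted p = 0.118). Ccbl1, a kynurenine aminotransferase, had 27.9, 51.0 and 33.0 FPKM in sham and 24.4, 20.4 and 19.2 FPKM in IPO (limma adjusted p = 0.186). Nnmt, the nicotinamide methyltransferase, had 311, 234 and 186 FPKM in sham and 171, 156 and 164 FPKM in IPO (limma adjusted p = 0.274). None of these 3 genes overlapped between the groups. The IR mean of Tdo2, 525 ± 104 FPKM (SD, n = 3), lay between those of sham and IPO. The list median stayed between -0.52 and -0.38 in every alternative analysis, and the count of 5 ran from 4 to 8, the highest without IR replicate 1.

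**Figure D4:**
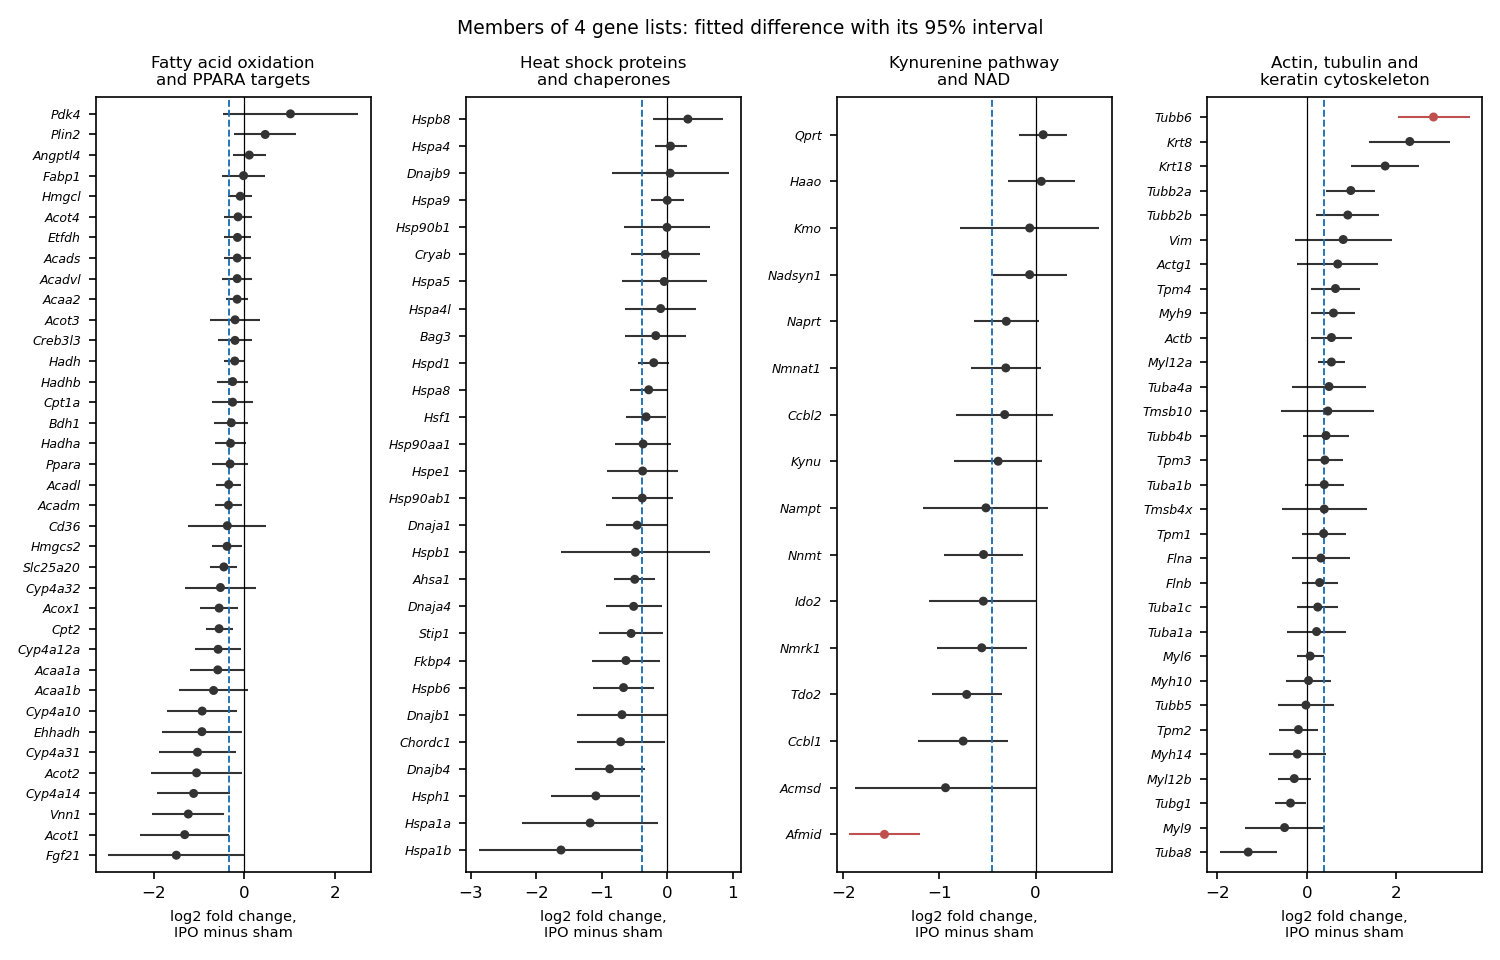
Fitted log2 fold change of each tested member of 4 gene lists in IPO against sham (points) with its 95% interval (lines), called genes in red and the list median as a dashed line. In the first 3 lists most points lie left of 0, with medians of -0.35, -0.38 and -0.45, and in the cytoskeleton list most lie right of it, with a median of 0.39.

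NRF2 targets and interferon-stimulated genes held members that were higher in IPO while their medians stayed near 0. Of 32 tested NRF2 targets and glutathione genes, 0 were called and 5 (15.6%) were higher and 0 lower at an unadjusted p under 0.05, with a median of 0.00. Gclc, the catalytic subunit of the first enzyme of glutathione synthesis, had 41.7, 33.3 and 54.5 FPKM in sham and 98.5, 219 and 133 FPKM in IPO (log2 fold change 1.74, SE 0.31, limma adjusted p = 0.0796). Srxn1, sulfiredoxin, had 40.5, 39.3 and 23.8 FPKM in sham and 45.7, 122.8 and 83.3 FPKM in IPO (limma adjusted p = 0.280). Hmox1, haem oxygenase 1, had 40.1, 26.2 and 25.6 FPKM in sham and 35.4, 119 and 76.8 FPKM in IPO (limma adjusted p = 0.302). IPO replicate 2 was the highest library in these 3 genes, and Hmox1 overlapped between the groups. The count of 5 became 1 without IPO replicate 2, and 2 without sham replicate 2, sham replicate 3 or IPO replicate 3.

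Of 33 tested interferon-stimulated genes, 0 were called, 5 (15.2%) were higher and 1 (3.03%) lower at an unadjusted p under 0.05, and 11 (33.3%) lay above sham without overlap, against 9.59% of all tested genes. The median was 0.08. Rsad2, the antiviral enzyme viperin, had 1.86, 2.17 and 4.35 FPKM in sham and 6.12, 12.8 and 14.2 FPKM in IPO (log2 fold change 1.80, SE 0.40, limma adjusted p = 0.118). Ifit1, which binds foreign RNA ends, had 1.19, 1.21 and 3.09 FPKM in sham and 3.94, 7.28 and 7.72 FPKM in IPO (log2 fold change 1.59, SE 0.39, limma adjusted p = 0.144). In both genes sham replicate 3 was the highest sham library and IPO replicate 1 the lowest IPO library. Stat2, a transcription factor of interferon signalling, went the other way, with 20.8, 21.7 and 15.9 FPKM in sham and 15.9, 13.1 and 13.6 FPKM in IPO (limma adjusted p = 0.345). The count of 5 became 2 without sham replicate 1, sham replicate 2, IPO replicate 2 or IPO replicate 3, and 3 without sham replicate 3. It became 10, with 2 lower, without IR replicate 3 and also when only the sham and IPO libraries were fitted. IR replicate 3 summed to 710 FPKM over the list, against 251 and 249 in the other IR libraries.

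The letters of the interferon-stimulated response element, GAAA, any 2 bases and GAAA again, were searched on both strands, where the other strand reads TTTC, any 2 bases and TTTC. They were found in the 250 upstream bases of 14 of 25 members with a promoter entry (56.0%) and in 3.46% of all 27025 genes with an entry. Capitals mark them in 60 bases of 3 members that measured higher in IPO, Rsad2 at chr12:26456538-26456597 (minus strand), Ifit1 at chr19:34640779-34640838 (plus strand) and Ifit3 at chr19:34583382-34583441 (plus strand).
Rsad2: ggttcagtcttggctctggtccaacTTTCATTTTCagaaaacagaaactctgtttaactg
Ifit1: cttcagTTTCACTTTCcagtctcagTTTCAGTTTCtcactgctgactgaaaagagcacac
Ifit3: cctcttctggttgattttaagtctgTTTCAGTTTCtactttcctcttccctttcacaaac
Ifit3 had 2.71, 3.31 and 4.34 FPKM in sham and 5.54, 8.71 and 11.4 FPKM in IPO, without overlap (limma adjusted p = 0.405), and was chosen after its values were seen. Its neighbour Ifit3b is a close copy, so fragments may have been divided between them. Stat2, which was lower in IPO, holds the motif as well.

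Among regulators of hepatocyte identity, 0 of 25 tested transcription factors were called, and 4 (16.0%) were lower and 0 higher at an unadjusted p under 0.05. Foxa3, a forkhead factor, had 28.3, 39.6 and 24.1 FPKM in sham and 16.0, 17.2 and 14.7 FPKM in IPO (log2 fold change -0.90, SE 0.23, limma adjusted p = 0.164). Cebpa had 95.5, 78.7 and 82.4 FPKM in sham and 38.0, 63.5 and 48.2 FPKM in IPO (log2 fold change -0.80, SE 0.21, limma adjusted p = 0.171). The groups did not overlap in either gene. Of 27 secreted hepatocyte proteins, 21 had a positive log2 fold change, 2 (7.41%) were higher and 0 lower at an unadjusted p under 0.05, and the median was 0.11. Alb, the gene of serum albumin and named as a defining marker, had 9107, 8826 and 13182 FPKM in sham and 13696, 12249 and 12843 FPKM in IPO (limma adjusted p = 0.514).

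Clock genes leaned lower, with 5 of 18 (27.8%) lower and 1 (5.56%) higher at an unadjusted p under 0.05, 0 called, and a median of -0.25. Nr1d1, the repressor REV-ERB alpha, had 11.3, 8.57 and 10.998 FPKM in sham and 16.0, 17.2 and 16.1 FPKM in IPO (limma adjusted p = 0.147). Per2, a repressor of the clock, had 1.13, 3.02 and 3.93 FPKM in sham and 0.653, 0.725 and 0.883 FPKM in IPO (limma adjusted p = 0.319). Both were separate between the groups, in opposite directions. Sham replicate 3 was the highest sham library for Per2, and without it the list median was 0.05 and the lower members numbered 3. The lower members numbered 3 without sham replicate 2 also, and 2 without any 1 of the IPO libraries. The time of day at sampling is not given in the labels.

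In lipid synthesis the cholesterol list had a median above that of all genes and the lipogenesis list a median close to it. The counts of both changed when single libraries were left out. Of 27 tested genes of cholesterol synthesis and SREBP2 targets, 0 were called, 3 (11.1%) were higher and 0 lower at an unadjusted p under 0.05, and the median was 0.55. Without sham replicate 3 the higher members numbered 14 and the median was 0.78, without IPO replicate 1 they numbered 0 with a median of 0.22, and without sham replicate 2 the median was 0.24. Acat2, a cytosolic thiolase that makes the acetoacetyl-CoA used in cholesterol synthesis, had 16.5, 14.7 and 16.2 FPKM in sham and 22.7, 21.4 and 18.3 FPKM in IPO (limma adjusted p = 0.256), without overlap. Of 30 genes of lipogenesis and triglyceride synthesis, 0 were called, 13 had a positive and 17 a negative log2 fold change. The median was -0.02, against -0.03 over all tested genes. At an unadjusted p under 0.05, 6 (20.0%) were lower and 1 (3.33%) higher. Srebf1, the transcription factor SREBP1, was the higher one, with 2.96, 2.75 and 6.23 FPKM in sham and 9.24, 6.96 and 7.34 FPKM in IPO (limma adjusted p = 0.229). Me1, malic enzyme, had 49.9, 56.5 and 41.4 FPKM in sham and 31.5, 41.2 and 34.9 FPKM in IPO (limma adjusted p = 0.273). The count of 6 became 1 without sham replicate 1 or sham replicate 2, and 2 without IPO replicate 1.

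Hypoxia-inducible and glycolytic genes had 0 called of 26, with 3 (11.5%) higher and 4 (15.4%) lower at an unadjusted p under 0.05. The lower members numbered 2 without sham replicate 2 and 7 without IR replicate 1, and the higher members 1 without IPO replicate 1. Hif1a, the oxygen-regulated transcription factor subunit, had 21.4, 16.2 and 14.1 FPKM in sham and 25.8, 26.8 and 28.2 FPKM in IPO (log2 fold change 0.65, SE 0.15, limma adjusted p = 0.121), and its IR level was 10.2 ± 0.146 FPKM (SD, n = 3). Pfkfb1, a liver enzyme that sets fructose 2,6-bisphosphate levels, had 3.43, 6.23 and 8.26 FPKM in sham and 2.80, 3.00 and 3.25 FPKM in IPO (limma adjusted p = 0.231). Neither gene overlapped between the groups. Hsd3b5, a steroid dehydrogenase that is more abundant in male mouse liver, had 0.764, 0.144 and 1.49 FPKM in sham and 10.7, 5.05 and 4.13 FPKM in IPO (log2 fold change 2.49, SE 0.44, limma adjusted p = 0.0751). The sham libraries averaged below the filter of 1 FPKM for Hsd3b5, and the IPO libraries, where it was high, sufficed to carry it past. Its sham values lie around the added 0.5 FPKM, so the size of its fold change depends on that amount and is understated. In the list of sex-biased and growth hormone regulated genes, which holds Hsd3b5, 0 of 25 were called, with 2 higher and 2 lower at an unadjusted p under 0.05.

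Acute phase and immediate early genes had 0 called members between IPO and sham. Against IR, 21 of 29 acute phase genes were called higher in IPO, where 12% of all tested genes were, and 18 of 27 immediate early genes lower, where 10.1% were. Of the acute phase genes against sham, 1 (3.45%) was higher and 3 (10.3%) lower at an unadjusted p under 0.05, and the median was 0.02. Saa1, serum amyloid A1, had 982, 1146 and 494 FPKM in sham and 928, 541 and 575 FPKM in IPO, with 43.7 ± 58.9 FPKM (SD, n = 3) in IR. Saa1 was chosen after its values were seen, and its 95% interval for IPO against sham, from -2.126 to 1.496 on the log2 scale, is wide and spans differences of either sign. The lower members were Lbp, Saa4 and Orm3. Lbp, the lipopolysaccharide-binding protein, had 77.2, 87.5 and 53.9 FPKM in sham and 48.8, 44.9 and 43.3 FPKM in IPO (limma adjusted p = 0.197). Saa4 had 319, 417 and 239 FPKM in sham and 179, 131 and 137 FPKM in IPO (limma adjusted p = 0.228). The groups were separate in both genes. Of 27 tested immediate early genes, 2 (7.41%) were higher and 2 (7.41%) lower at an unadjusted p under 0.05, and the median was -0.17. Klf6, a zinc finger factor of the early response, had 13.7, 8.37 and 13.1 FPKM in sham and 13.5, 31.6 and 28.5 FPKM in IPO (limma adjusted p = 0.248), and Ier2 had 15.3, 16.2 and 17.5 FPKM against 8.41, 14.1 and 12.5 FPKM (limma adjusted p = 0.308).

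**Figure D5:**
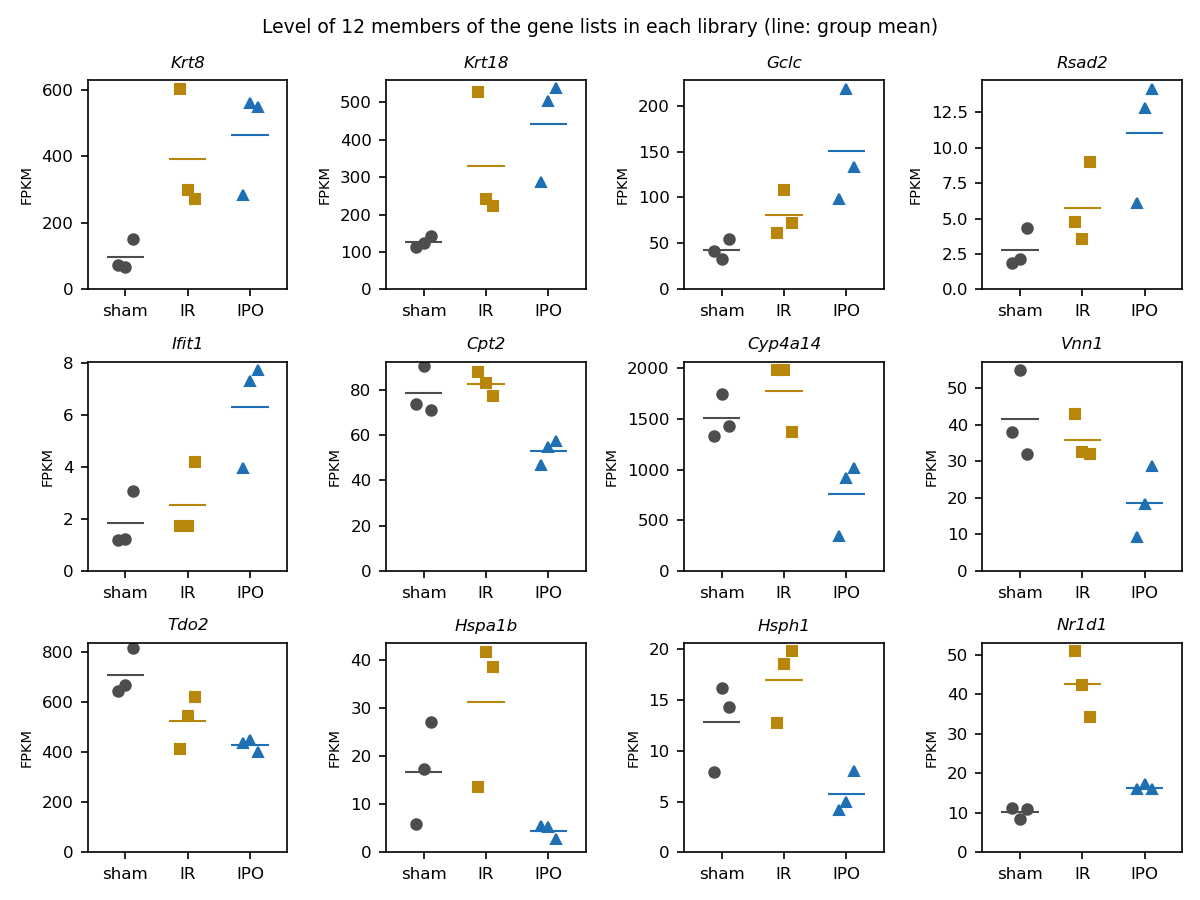
FPKM of 12 list members in each of the 9 libraries, with 1 symbol per library and a line at the group mean; each panel has its own axis from 0. Krt8, Krt18, Gclc, Rsad2, Ifit1 and Nr1d1 are higher in the IPO libraries than in the sham libraries, and Cpt2, Cyp4a14, Vnn1, Tdo2 and Hspa1b are lower, without overlap, while Hsph1 overlaps.

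Larger families are given by their counts. A positive log2 fold change was found in 4356 of all 9649 tested genes. Of 81 tested cytosolic ribosomal protein genes, 71 had a positive log2 fold change, 0 had an unadjusted p under 0.05, and the median was 0.09. Of 46 proteasome subunit genes, 40 had a negative log2 fold change, 0 were higher and 3 (6.52%) lower at an unadjusted p under 0.05, and the median was -0.18. In 13 of the 46 (28.3%) all IPO libraries lay below all sham libraries, against 13.2% of all tested genes. Of 172 tested solute carriers, 0 were called, and 5 (2.91%) were higher and 14 (8.14%) lower at an unadjusted p under 0.05, against 5.15% and 7.14% of all tested genes.

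Markers of non-hepatocyte cells had no called member. The spread in this test includes the IR libraries, which differed widely in such genes. In IR replicate 3 the Kupffer list summed to 748 FPKM, against 325 and 230 in the other IR libraries. The T and NK cell list summed to 50.3 FPKM there, against 2.13 and 2.91. An absent call is therefore no sign of equal levels in sham and IPO. In bulk tissue, fewer cells of a type and less RNA per cell cannot be told apart. The 7 Kupffer cell markers of the defining set summed to 79.3 to 107 FPKM in sham and 97.2 to 117 FPKM in IPO, the 6 sinusoidal endothelial markers to 44.3 to 73.9 and 56.9 to 65.0 FPKM, and the 6 stellate cell markers to 111 to 131 and 121 to 145 FPKM. The 6 tested neutrophil markers of 7 summed to 64.4 to 91.9 FPKM in sham and 48.3 to 129 FPKM in IPO, while Ly6g was not among the tested genes. All these ranges overlap. Cela1, a pancreatic elastase gene and the tested one of 3 pancreas markers, did not overlap, at 2.43 to 2.98 FPKM in sham and 3.87 to 4.82 FPKM in IPO, and was higher at an unadjusted p under 0.05 (limma adjusted p = 0.289). For cholangiocytes 3 of 5 markers were tested, without Krt7 and Krt19, and none of the 4 B cell markers was. Cd68, a lysosomal protein of macrophages, was the Kupffer list member with an unadjusted p under 0.05, at 7.03, 5.66 and 4.70 FPKM in sham and 10.5, 14.1 and 12.3 FPKM in IPO (limma adjusted p = 0.361). The part of cell composition in the differences above was not tested.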

How the data were processed

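The authors deposited FPKM per gene and library; per the submitters' processing notes the build is mm10, and no source used here names the aligner, annotation or quantification program. Libraries were made with a stranded kit, per the labels. The authors' deposited table of IPO against sham gives a log2 fold change, which lies within 0.001 of the difference of mean log2(FPKM + 1) for all 275 genes listed, a fold change (ratio) and a p-value and q-value from an unnamed test. Of its genes 268 were tested here, and the deposited q-values run from 0.0247 to 0.369, with 1 under 0.05. FPKM are no counts, so the depth of each library and the counting error cannot be given.

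Values were taken as log2(FPKM + 0.5). Genes averaging 1 FPKM or more over 9 libraries entered 1 limma model of 3 group means (limma 3.58.1, R 4.3.3) with a variance trend, 6 residual and 3.56 prior degrees of freedom. Two-sided moderated tests were adjusted by Benjamini-Hochberg over all 9649 genes and called at an adjusted p under 0.05. The added 0.5 understates the change of low genes. For library summaries an exact permutation test was used, which for 3 against 3 libraries cannot go below p = 0.1. The fit was tested on simulated data.

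The genes named are up to 15 called genes in each direction, by size of change, that reach 5 FPKM in the group where they are higher, show no overlap and are neither predicted nor clone-named; in each list they are the called members, filled up to 4 by smallest p. Fkbp4 and other genes outside the rule were named after their values were seen. The comparison, the gene lists and the rule were chosen with earlier results of these data known. Exon overlap came from GENCODE M21, which held 11212 of the 11229 identifiers, and upstream sequences from RefSeq (GRCm38.p6), with pandas and matplotlib used for tables and figures. Of the 22 called genes, 14 had a promoter entry.

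Replicate numbers recur in the groups. The residuals of same-numbered sham and IPO libraries correlated at 0.0380, -0.0675 and 0.0653, and nothing in the labels pairs them, so no block was used. The alternatives tried were an added 0.1 or 1 FPKM, every gene unfiltered, a filter at 5 FPKM, median-of-ratios and quantile scaling, a replicate block, the sham and IPO libraries only, robust estimation, no variance trend, and leaving out each library in turn.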

Additional observations from a re-analysis of the deposited data

How the results depend on the processing

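The count of 22 genes (12 higher, 10 lower, 18 at least 2-fold) was 22 with either pseudocount, without a filter, with robust estimation and without a variance trend, 18 with a mean of at least 5 FPKM, and 23 with either scaling. Of the 22 calls, 20 were shared under median-of-ratios scaling, without Bcl9l and Wdfy1, and 19 under quantile scaling, without these and Cyp2c70. Without a variance trend 20 were shared, without Cyp2c70 and Nudt4. Median-of-ratios scaling moved the median of all genes from -0.03 to 0.00. With the sham and IPO libraries only, 15 genes were called and 5 were lower, and 12 of the 15 were shared with the 22. Adck4, Aqp8, Atoh8, Bcat2, Bcl9l, Csk, Cyp2c70, Efhd2, Nudt4 and Zfp395 lost their call in that fit. With the replicate number as a block, 2 genes were called, 2 higher and 0 lower, 2 of them at least 2-fold (Aqp8 and Gm20708); 3 of 6 libraries matched best with their own number. Leaving out 1 library at a time gave 1 to 26 calls, 1 to 14 higher, 0 to 12 lower and 1 to 19 at least 2-fold; the single libraries are given in the report, and without IR replicate 1 or 3 there were 26 and 25. Gm20708 was called in all 19 alternatives, and Afmid and Tmem70 in all but the block and those without sham replicate 2 and IPO replicate 3. No result reversed its direction among the called genes. In the fits without a library none could, because the sham and IPO libraries of these genes do not overlap. The cause of these dependences was not tested. Because depth is unknown, the counting error of low genes such as Akr1b7 and Rtn4rl1 could not be estimated.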
